A study of Mus musculus with 8 samples.

Results

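The collagen gene family was followed in fibroadipogenic progenitors, the stromal cells that lie between muscle fibres, in mice with a pancreatic tumour. Members were the rows of the deposited count table whose symbol names a collagen alpha chain. There were 44 such rows among 24419, and 39 had at least 10 reads in 2 or more of the 8 libraries. All 11 fibrillar chains, all 9 basement membrane chains, 7 of 9 network chains, 7 of 9 fibril-associated chains and 5 of 6 transmembrane or other chains passed that minimum. No read was counted for Col9a1, Col10a1 or Col19a1, and 1 read was counted for Col25a1. Col6a4 lay just outside, with 1, 21 and 9 reads in the knockdown libraries, 7, 4 and 0 in the scrambled libraries and 0 and 1 in the sham libraries. Col26a1 lay just inside, with 10, 0 and 7 reads in the knockdown libraries, none in the scrambled libraries and 1 and 17 in the sham libraries. It was too sparse to test, which left 38 collagens in the tests, and their number in each direction is not independent of that filter.

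In all groups RNA came from cells sorted from hindlimb muscle of male C57BL/6J mice. The gate took SCA-1+ and Hoechst+ cells that were negative for CD31, CD45, α7-integrin and propidium iodide. In the knockdown group (n = 3), KPCY pancreatic cancer cells carrying a lentiviral inhibitor of miR-27a-3p had been injected into the pancreas. The scrambled group (n = 3) received KPCY cells with a lentiviral scrambled sequence instead, and the sham group (n = 2) only sham surgery. Both cell lines had been selected with 2 µg/mL puromycin for 7 days, and each dose of cells was given in 50 µL. The inhibitor was in the implanted tumour cells and not in the sorted cells. The sources used here give neither the ages of the mice nor the time from injection to sorting. The labels call the libraries biological replicates.

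A collagen molecule is a triple helix of 3 alpha chains. Types I, III and V are fibrillar and assemble into the fibrils that carry load in the endomysium and perimysium of muscle. Type IV forms the sheet of the basement membrane around each fibre and capillary, type VI forms beaded filaments next to it, and types XII, XIV and XVI decorate fibrils. Types XV and XVIII are proteoglycan collagens of the basement membrane zone, and fragments of type XVIII are released as endostatin. Fibroadipogenic progenitors are known as a main source of muscle collagen.

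Total counts ran from 15647436 to 28340450 per library. On the first principal component of log2 CPM (reads of a gene scaled to a library of fixed size, with TMM factors), which held 61.1% of the variance over all genes tested, scrambled libraries 1 and 3 stood apart from the rest at 115 and 92. Scrambled library 2 was at -12.3 and the knockdown and sham libraries lay between -47.7 and -32.3. Of the libraries that stood apart, scrambled 1 had the most counts of the 8 and scrambled 3 among the fewest. Pdgfra, which marks fibroadipogenic progenitors, was at 1449 to 1477 CPM in knockdown libraries, 1519 to 1586 CPM in scrambled libraries and 1256 to 1588 CPM in sham libraries. Ly6a, the gene for SCA-1, had 1110.1, 1175 and 1033 CPM in knockdown libraries, 451, 1136 and 436 CPM in scrambled libraries and 951 and 933 CPM in sham libraries. Values with scrambled 2 as the single scrambled library therefore stand beside the fits that rest most on scrambled 1 and 3.

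Collagens took a smaller part of the RNA in scrambled libraries 1 and 3 than in any other library, and type IV dominated what was left there. Collagen reads made up 5.35%, 6.95% and 5.49% of the counts in knockdown libraries 1 to 3. They made up 1.57%, 4.09% and 1.41% in scrambled libraries 1 to 3 and 7.57% and 5.10% in sham libraries 1 and 2. All 3 scrambled libraries were below every other library, and scrambled 2 came nearest to them. In bulk RNA such as this, fewer collagen-making cells and less collagen RNA per cell cannot be told apart.

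The make-up of the collagen reads differed as much as their amount. Type IV chains held 11.8%, 10.3% and 12.2% of collagen CPM in knockdown libraries, 57.6%, 15.8% and 59.6% in scrambled libraries and 9.79% and 10.3% in sham libraries. Col3a1 held 26.4%, 28.6% and 26.7% in knockdown libraries, 5.67%, 24.6% and 6.78% in scrambled libraries and 30% and 26.7% in sham libraries. Knockdown and sham libraries thus had nearly the same mix, scrambled 2 was close to it, and scrambled 1 and 3 were mostly type IV. Summed over all members, the difference in mean log2 collagen CPM, with the SDs of both groups combined as the root of their summed squares, was -1.48 (SD 0.91) for scrambled against sham, 1.39 (SD 0.83) for knockdown against scrambled and -0.09 (SD 0.47) for knockdown against sham. With scrambled 2 as the only scrambled library, which was chosen after the data were seen, the differences were -0.56 for scrambled against sham and 0.47 for knockdown against scrambled.

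**Figure D1:**
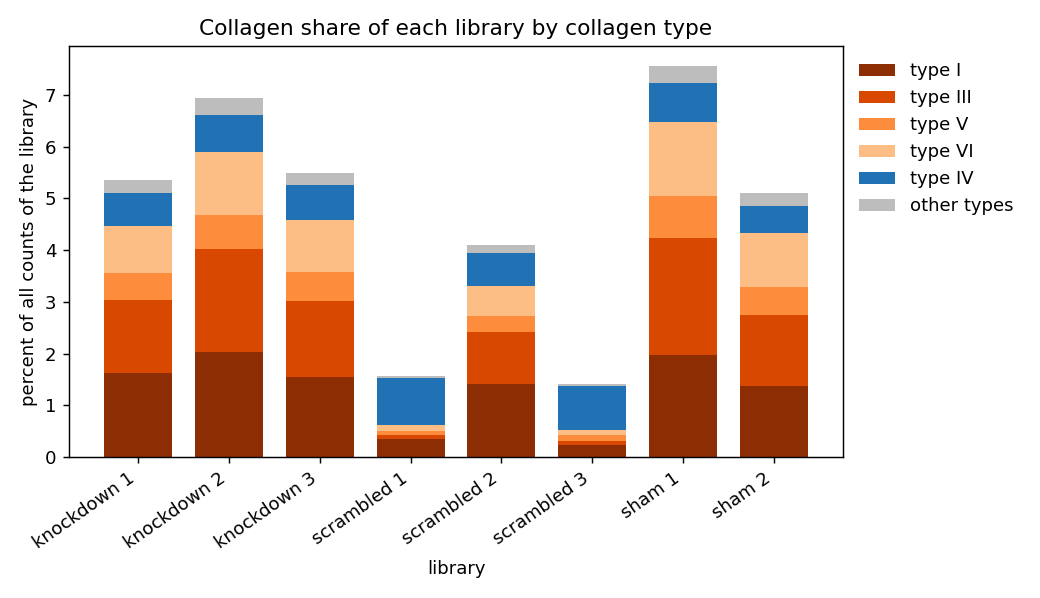
Stacked bars give the percent of all counts of each library (vertical axis) that fell on types I, III, V, VI and IV and on all other collagens. The bars of scrambled 1 and 3 end at 1.57% and 1.41% and are mostly type IV, while knockdown bars end between 5.35% and 6.95%.

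In the test of single genes (edgeR's quasi-likelihood test, 2-sided, with Benjamini-Hochberg adjustment over 13646 genes and a threshold of 0.05), 1 of 38 collagens passed for scrambled against sham. It was Col18a1, and it was lower. Over all genes 0.476% were called lower and 1.1% higher, and none of the collagens was called higher. The groups did not overlap for 16 collagens that were lower and 4 that were higher in scrambled libraries, against a background of 20.8% and 20.2% of all genes. The median log2 fold change was -1.23 over the collagens and 0.00 over all genes tested. At an unadjusted p under 0.05 there were 19 collagens (50.0%), beside 29.2% of all genes. DESeq2 called 10 lower and 0 higher, beside 5.01% and 8.79% of all genes.

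For knockdown against scrambled 0 of 38 collagens passed the same test, beside 0.00733% of all genes called higher and 0.044% called lower. At an unadjusted p under 0.05 there were 18 collagens (47.4%), beside 32.4% of all genes, and DESeq2 called 13 higher and 0 lower (background 5.42% and 10.4%). The groups did not overlap for 19 collagens that were higher and 0 that were lower in knockdown libraries, against a background of 17.5% and 16.7%. The median log2 fold change was 1.16 over the collagens and 0.01 over all genes. Both comparisons share the scrambled libraries, so their values stand side by side and are not 2 independent results.

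For knockdown against sham 0 of 38 collagens passed, beside 0.00733% of all genes called higher and 0.0% called lower. No collagen reached an unadjusted p under 0.05, beside 2.37% of all genes, and DESeq2 called 0 (background 0.182% higher and 0.00758% lower). The log2 fold changes ran from -0.77 (Col8a1) to 2.31 (Col17a1), with a median of 0.05. Groups did not overlap for 6 collagens that were higher and 1 that was lower in knockdown libraries, against a background of 13.8% and 13.5%.

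The count of calls depended on scrambled library 2, whose summed collagen level lay between those of scrambled 1 and 3 and those of the sham libraries. Without it, edgeR called 19 collagens lower and 4 higher for scrambled against sham (background 25.6% and 25.4%), and 23 higher and 1 lower for knockdown against scrambled (background 27.3% and 26.6%). With scrambled 2 as the single scrambled library, 5 were lower and 0 higher for scrambled against sham (background 1.34% and 2.21%), and 2 were higher and 0 lower for knockdown against scrambled (background 0.194% and 0.525%). In that fit the lone library was assumed to vary like the other groups. The 5 were Col5a3, Col6a1, Col6a2, Col15a1 and Col18a1, and the 2 were Col5a3 and Col18a1. For knockdown against sham the count stayed at 0, with a background of 0.17% higher and 0.0664% lower without scrambled 2 and of 0.539% and 0.201% with scrambled 2 alone.

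**Figure D2:**
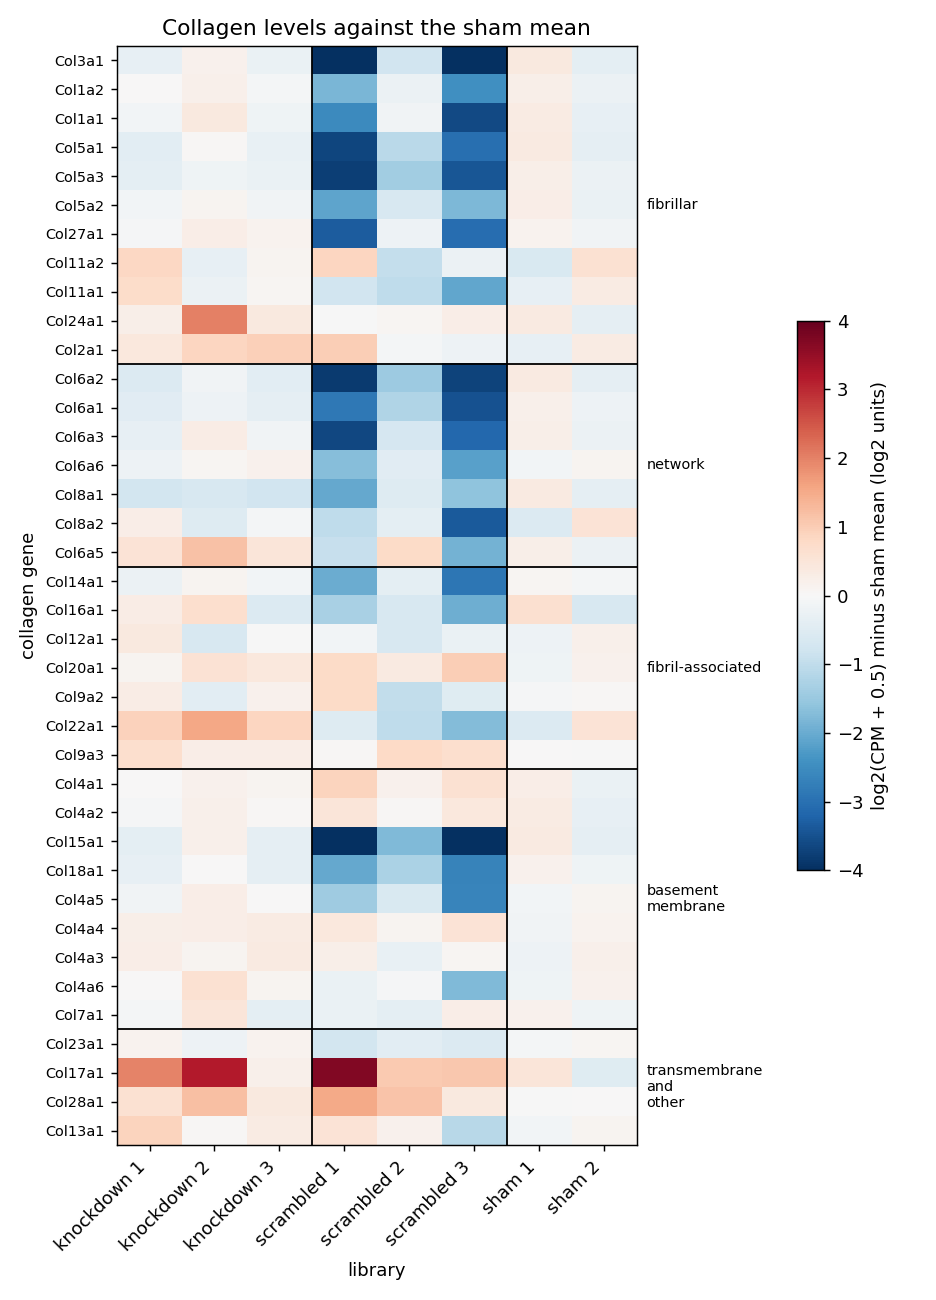
Each cell gives log2(CPM + 0.5) of 1 of the 38 tested collagens (rows, by structural group) in 1 library (columns) minus the mean of the sham libraries, with blue lower and red higher. Most fibrillar and network chains are blue in scrambled 1 and 3 and paler in scrambled 2. Col4a1, Col4a2 and Col4a4 are red or near white in all 3 scrambled libraries.

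**Figure D3:**
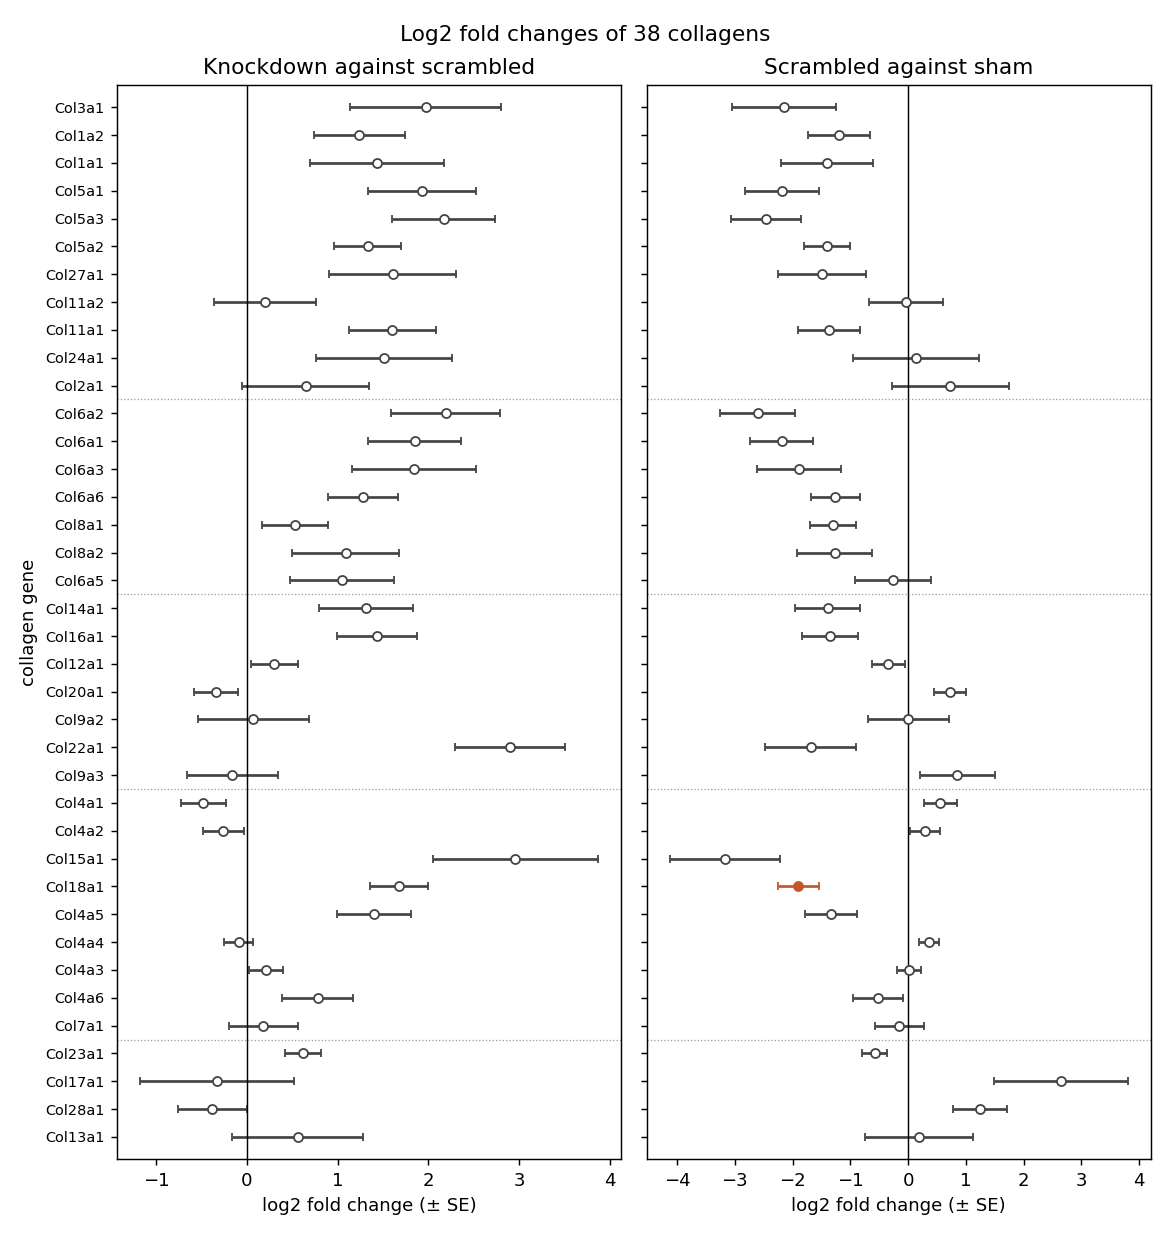
Log2 fold changes with their standard errors (horizontal axes, which differ between the panels) are drawn for knockdown against scrambled and for scrambled against sham. Dotted lines separate fibrillar, network, fibril-associated, basement membrane and other chains, and the filled point is the only one with an adjusted p under 0.05, Col18a1 at -1.90 for scrambled against sham.

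Among fibrillar chains, Col3a1, Col1a2 and Col1a1 were the most abundant collagens per length in knockdown and sham libraries, and none of the 11 passed the test in any comparison. The median log2 fold change of the 11 was -1.40 for scrambled against sham and 1.51 for knockdown against scrambled, and with scrambled 2 alone it was -0.67 and 0.86. Col3a1, the single chain of type III, makes thin fibrils with type I. It had 13717, 19386 and 14230.2 CPM in knockdown libraries, 990.1, 10123 and 974 CPM in scrambled libraries and 22477 and 13185 CPM in sham libraries. All scrambled libraries were below all others, and the highest scrambled library was at 10.4 times the lowest. Its log2 fold change was -2.15 ± 0.90 (SE) for scrambled against sham (edgeR adjusted p = 0.156) and 1.97 ± 0.83 for knockdown against scrambled (adjusted p = 0.143). Without scrambled 2 these were -4.18 (adjusted p = 1.3e-06) and 4.0 (adjusted p = 1.26e-06), and over all settings tried the adjusted p reached 0.488 and 0.446.

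Both chains of type I, the main fibril of tendon and muscle connective tissue, were low in scrambled 1 and 3 but not in scrambled 2. Col1a1 had 6384, 9010.3 and 6109 CPM in knockdown libraries, 1174, 6238 and 557 CPM in scrambled libraries and 8575 and 5448 CPM in sham libraries. Col1a2 had 9332, 10781 and 8877 CPM in knockdown libraries, 2631, 7957 and 1716 CPM in scrambled libraries and 10972 and 7927 CPM in sham libraries. Scrambled 2 lay within the range of the sham libraries for both chains, so scrambled and sham overlapped. The log2 fold change of Col1a1 was -1.40 ± 0.80 for scrambled against sham (edgeR adjusted p = 0.255) and 1.43 ± 0.74 for knockdown against scrambled (adjusted p = 0.203). That of Col1a2 was -1.20 ± 0.54 (adjusted p = 0.177) and 1.24 ± 0.50 (adjusted p = 0.132) in the same order. With scrambled 2 alone, Col1a1 was at -0.17 and Col1a2 at -0.25 for scrambled against sham.

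Type V chains start fibrils and set their width, and Col5a3 forms part of a rarer type V molecule. Col5a3 had 1694, 1979.9 and 1836 CPM in knockdown libraries, 164, 855 and 206 CPM in scrambled libraries and 2623 and 1882 CPM in sham libraries. Each scrambled library, the second included, was below every knockdown and sham library. The log2 fold change was -2.46 ± 0.61 for scrambled against sham (edgeR adjusted p = 0.0688) and 2.17 ± 0.57 for knockdown against scrambled (adjusted p = 0.0727). With scrambled 2 as the single scrambled library the values were -1.40 (adjusted p = 0.00459) and 1.10 (adjusted p = 0.0411), so this fibrillar chain passed in both. Over all settings tried its adjusted p ran from 4.22e-07 to 0.406 and from 4.96e-07 to 0.236.

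Col5a1 had 1818, 2515 and 1955 CPM in knockdown libraries, 192, 1154 and 298 CPM in scrambled libraries and 3119.5 and 1889 CPM in sham libraries. Col5a2 had 1704, 1961 and 1671 CPM in knockdown libraries, 419.8, 1170 and 529.7 CPM in scrambled libraries and 2221 and 1507 CPM in sham libraries. Neither chain overlapped between scrambled and the other groups. For scrambled against sham Col5a1 was at -2.19 ± 0.64 (edgeR adjusted p = 0.0896) and Col5a2 at -1.40 ± 0.40 (adjusted p = 0.0858). For knockdown against scrambled Col5a1 was at 1.93 ± 0.59 (adjusted p = 0.0857) and Col5a2 at 1.33 ± 0.37 (adjusted p = 0.0752). Scrambled 2 alone gave Col5a1 -1.11 (adjusted p = 0.0942) and Col5a2 -0.67 (adjusted p = 0.154) against sham, and 0.86 (adjusted p = 0.258) and 0.60 (adjusted p = 0.268) for knockdown against scrambled.

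The other fibrillar chains were scarce. Col27a1, a fibrillar chain named here after its values were seen, had 49.0, 60.4 and 55.2 CPM in knockdown libraries, 4.54, 43.1 and 5.60 CPM in scrambled libraries and 55.7 and 45.1 CPM in sham libraries. Scrambled 1 and 3 were far below the rest, and scrambled 2 was just under the sham range. Col2a1, Col11a1 and Col11a2, which are best known from cartilage, and Col24a1 had group means between 0.314 and 6.03 CPM. Col24a1 had 0.667, 3.52 and 0.787 CPM in knockdown libraries, 0.470, 0.549 and 0.693 CPM in scrambled libraries and 0.759 and 0.279 CPM in sham libraries, and 1 library set its knockdown mean.

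**Figure D4:**
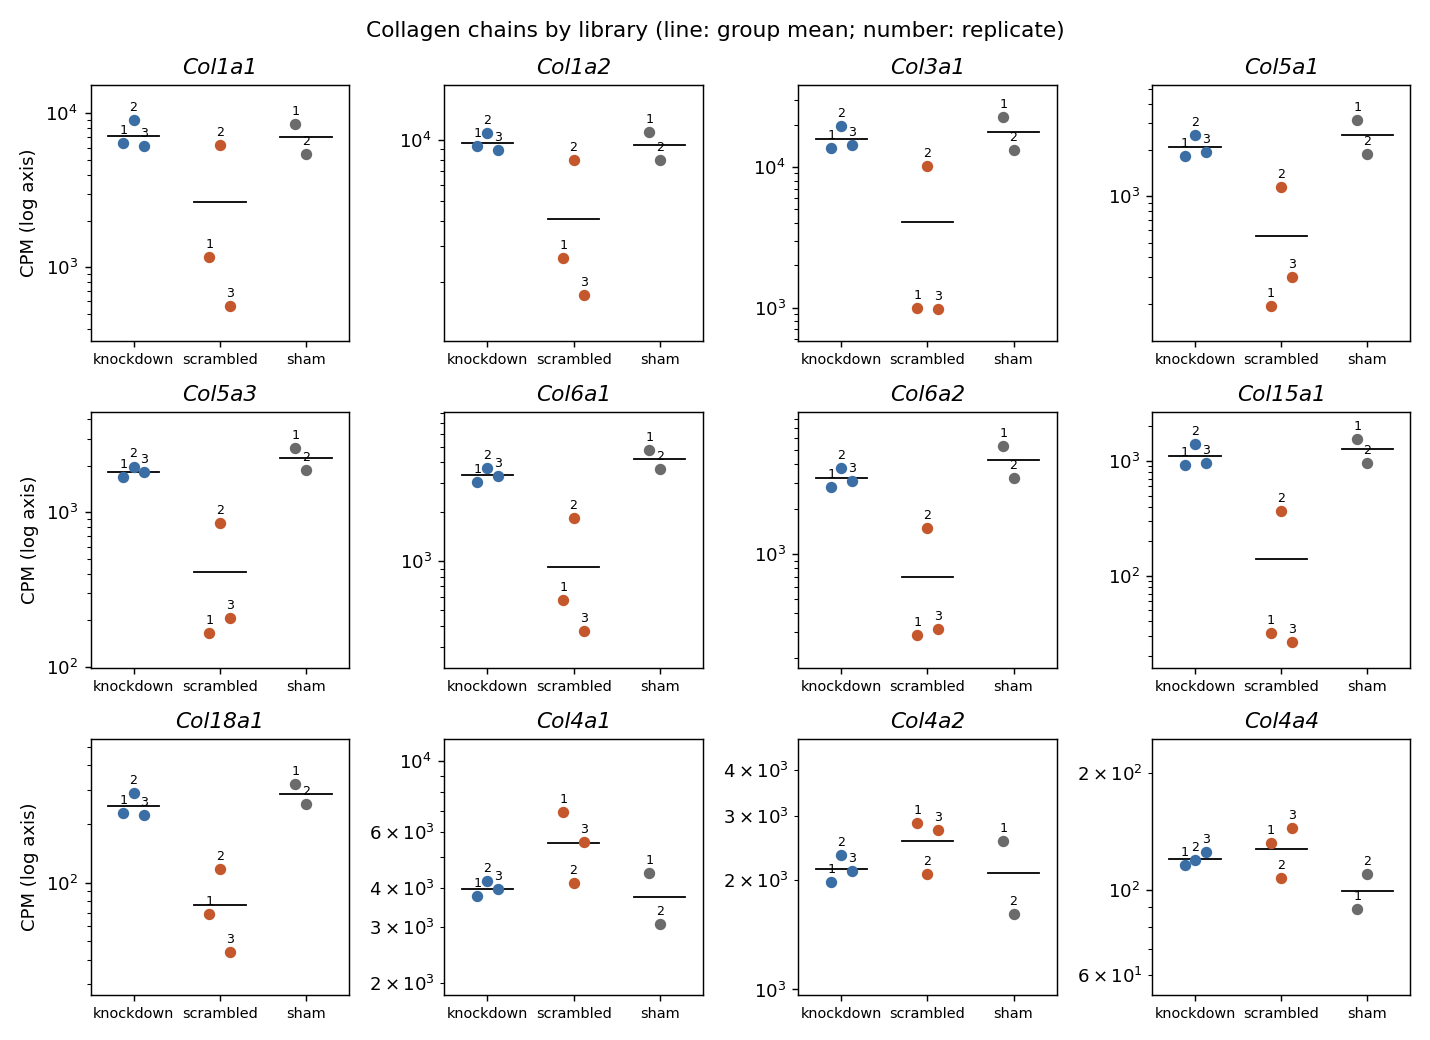
Points give TMM-scaled CPM (vertical log axes, which differ between panels) of 12 collagen chains in each library, numbered by replicate, with lines at the group means. In the first 9 panels scrambled 1 and 3 lie below all knockdown and sham libraries, with Col1a1 and Col1a2 in scrambled 2 inside the sham range, while Col4a1, Col4a2 and Col4a4 show no such gap.

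Bases upstream of the start are shown for Col3a1, the most abundant chain, and for Col5a3 and Col18a1, the pair that passed in both comparisons with scrambled 2 as the single scrambled library. They come from RefSeq on GRCm38.p6, in which 30 of the 39 reported genes had 32 promoters. For Col18a1 the bases next to the RefSeq start that GENCODE M21 annotates as untranslated or coding were left out. Its stretch thus has 102 bases, where those of Col3a1 and Col5a3 have 120. Capitals mark GGGCGG, which reads CCGCCC on the strand shown, and TATAA with the overlapping TTATA of the other strand.
Col3a1, chr1:45311418-45311537, plus strand: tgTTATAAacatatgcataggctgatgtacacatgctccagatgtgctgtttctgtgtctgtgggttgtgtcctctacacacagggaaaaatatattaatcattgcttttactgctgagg
Col5a3, chr9:20815068-20815187, minus strand: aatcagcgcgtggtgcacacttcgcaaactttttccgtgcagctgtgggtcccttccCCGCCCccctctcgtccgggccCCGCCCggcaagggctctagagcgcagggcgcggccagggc
Col18a1, chr10:77166549-77166650, minus strand: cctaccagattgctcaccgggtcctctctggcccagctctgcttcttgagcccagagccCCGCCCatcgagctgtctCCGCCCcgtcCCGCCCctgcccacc
Within 250 bases before the start, on either strand, GGGCGG stood in 20 of the 32 collagen promoters (62.5%), beside 32.7% of 32851 promoters. TATAA stood in 5 of 32 (15.6%, beside 22.8%) and CCAAT in 10 of 32 (31.2%, beside 33.8%). These letters are a description of the windows and not of bound factors.

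Network chains followed the fibrillar ones, with all 7 at a negative log2 fold change for scrambled against sham (median -1.30) and a positive one for knockdown against scrambled (median 1.28). None passed the test, and with scrambled 2 alone the medians were -0.57 and 0.47, with Col6a5 turned round to 0.78 and -0.00049 and Col8a1 to -0.20 in the second comparison. Type VI, whose main molecule joins 1 chain each of Col6a1, Col6a2 and Col6a3, links the basement membrane of muscle fibres to the matrix around it, and its loss causes muscular dystrophy in humans. Col6a1 had 3052, 3675 and 3296 CPM in knockdown libraries, 579, 1827 and 372 CPM in scrambled libraries and 4775 and 3669 CPM in sham libraries. Col6a2 had 2795, 3762 and 3067 CPM in knockdown libraries, 287, 1501 and 315 CPM in scrambled libraries and 5258 and 3231 CPM in sham libraries. Every scrambled library was below every library of the other groups for both chains.

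Col6a2 had a log2 fold change of -2.60 ± 0.65 for scrambled against sham (edgeR adjusted p = 0.0706) and 2.19 ± 0.60 for knockdown against scrambled (adjusted p = 0.0752). Col6a1 was at -2.19 ± 0.55 (adjusted p = 0.0721) and 1.85 ± 0.51 (adjusted p = 0.076). With scrambled 2 as the single scrambled library, Col6a1 was at -1.21 (adjusted p = 0.00869) and Col6a2 at -1.50 (adjusted p = 0.0243) against sham. Both thus passed against sham there, and neither did for knockdown against scrambled (adjusted p = 0.0757 and 0.126). Over all settings tried the adjusted p against sham ran from 2.17e-06 to 0.41 for Col6a1 and from 8.6e-07 to 0.415 for Col6a2.

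Col6a3, the largest of these chains, had 2570.3, 4005 and 2948 CPM in knockdown libraries, 259, 2034 and 369 CPM in scrambled libraries and 3824 and 2772 CPM in sham libraries. It was at -1.89 ± 0.73 for scrambled against sham (edgeR adjusted p = 0.138), and at -0.69 (adjusted p = 0.251) with scrambled 2 alone. Col6a5 and Col6a6 can take the place of Col6a3. Col6a6 had 344, 414 and 446 CPM in knockdown libraries, 121, 288 and 87.5 CPM in scrambled libraries and 369 and 423 CPM in sham libraries, with no overlap between scrambled and the rest. Col6a5 had 12.8, 20.0 and 12.1 CPM in knockdown libraries, 4.31, 14.8 and 1.95 CPM in scrambled libraries and 10.1 and 7.2 CPM in sham libraries, and scrambled 2 was above both sham libraries.

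Type VIII forms short-chain networks under endothelium and in vessel walls. Col8a1 had 63.8, 68.4 and 63.4 CPM in knockdown libraries, 25.8, 74.8 and 34.9 CPM in scrambled libraries and 139 and 83.2 CPM in sham libraries. It was the 1 collagen whose knockdown libraries were all below both sham libraries, at -0.77 ± 0.40 (edgeR adjusted p = 1.0). For scrambled against sham it was at -1.30 ± 0.40 (adjusted p = 0.0977), and at -0.57 (adjusted p = 0.317) with scrambled 2 alone. Col8a2 had 17.9, 10.3 and 14.1 CPM in knockdown libraries, 7.01, 11.2 and 1.01 CPM in scrambled libraries and 10.1 and 21.7 CPM in sham libraries, and its groups overlapped.

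Fibril-associated chains were mixed, with 4 negative and 3 positive log2 fold changes for scrambled against sham and none past the threshold. Col14a1, which binds the surface of type I fibrils, had 765, 976 and 835 CPM in knockdown libraries, 226, 688 and 122 CPM in scrambled libraries and 964 and 847 CPM in sham libraries. Its groups did not overlap for scrambled against sham (-1.39 ± 0.56, edgeR adjusted p = 0.149) or knockdown against scrambled (1.31 ± 0.52, adjusted p = 0.127). Col16a1 had 185, 241 and 104 CPM in knockdown libraries, 60.7, 96.7 and 39.0 CPM in scrambled libraries and 238 and 96.0 CPM in sham libraries. Scrambled 2 was just above sham 2, so that only the knockdown libraries lay apart from the scrambled ones (1.43 ± 0.44, adjusted p = 0.0872). Against scrambled 2 alone, knockdown was at 0.31 (adjusted p = 0.486) for Col14a1 and 0.86 (adjusted p = 0.732) for Col16a1, and scrambled 2 was at -0.39 (adjusted p = 0.311) against sham for Col14a1.

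Col22a1, a collagen of the junction between muscle and tendon, was the fibril-associated chain with the smallest p for knockdown against scrambled. It had 2.98, 4.86 and 2.89 CPM in knockdown libraries, 0.784, 0.423 and 0.063 CPM in scrambled libraries and 0.759 and 2.23 CPM in sham libraries. All knockdown libraries were above all others, and scrambled 2 was between scrambled 1 and 3. The log2 fold change was 2.90 ± 0.61 against scrambled (edgeR adjusted p = 0.0684) and 1.21 ± 0.60 against sham (adjusted p = 1.0). Col20a1, at group means of 13.2 CPM in knockdown, 16.8 CPM in scrambled and 10.1 CPM in sham libraries, was among the few chains with every scrambled library above both sham libraries. Col12a1, a chain of fibril surfaces under load, overlapped in every comparison, with log2 fold changes between -0.34 and 0.30.

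The tenocyte list, whose cells also make fibrillar collagen, summed to 681 to 1332 CPM in knockdown libraries, 707 to 841 CPM in scrambled libraries and 703 to 1099.7 CPM in sham libraries, and all 10 markers were tested. Thbs4 was the largest part of this sum in every library. It had 760.3, 449 and 553 CPM in knockdown, 532, 699 and 618 CPM in scrambled and 593 and 645 CPM in sham libraries. edgeR called 0 of the 10 tenocyte markers for scrambled against sham, beside 1.1% of all genes higher and 0.476% lower. Of these markers 4 had an unadjusted p under 0.05, beside 29.2% of all genes. DESeq2 called 0 higher and 3 lower, beside 8.79% and 5.01% of all genes. Their median log2 fold change was -1.29, beside 0.0 over all genes. Of the defining genes of tenocytes, Tnmd had 20.0, 6.64 and 15.4 CPM in knockdown libraries, 1.96, 8.49 and 0.567 CPM in scrambled libraries and 4.17 and 15.2 CPM in sham libraries. Scx was at most 1.62 CPM in any library. Of the 10 markers 8 had a negative log2 fold change for scrambled against sham, Kera at -4.25 and Thbs4 at -0.01 among them. Egr2 and Mkx were positive, at 0.6 and 1.01. The part of tenocytes in the fibrillar levels was not tested. The endothelial list, whose cells make type IV, summed to 524 to 613 CPM in knockdown, 423 to 516 CPM in scrambled and 533 to 557 CPM in sham libraries. Tek alone gave 357, 369 and 408 CPM of this sum in knockdown, 201, 291 and 216 CPM in scrambled and 392 and 412 CPM in sham libraries. Pecam1, the gene for CD31, had 35, 46.4 and 49.0 CPM in knockdown, 73.0, 37.7 and 56.2 CPM in scrambled and 29.9 and 20.2 CPM in sham libraries. Cldn5, of endothelial tight junctions, had 4.21, 3.01 and 5.95 CPM in knockdown, 28.3, 5.66 and 15.8 CPM in scrambled and 3.48 and 4.07 CPM in sham libraries. Both were highest in scrambled 1 and 3, where the type IV share was highest, and so were Kdr, Esam and Vwf. Cdh5, Tie1, Emcn and Egfl7 were not highest in both of these libraries, and Tek was lowest there. For scrambled against sham 8 of the 10 endothelial markers had a positive log2 fold change, with a median of 0.43. edgeR called 0, beside 1.1% of all genes higher and 0.476% lower. There were 5 at an unadjusted p under 0.05, beside 29.2% of all genes. DESeq2 called 3 higher and 1 lower, beside 8.79% and 5.01% of all genes. Without scrambled 2, edgeR called 5 higher and 1 lower (background 25.4% and 25.6%), and the median was 0.79, against -0.25 with scrambled 2 alone. The part of endothelial cells in the type IV levels was not tested.

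Basement membrane chains held the only call, and 3 of the 9 (Col15a1, Col18a1 and Col4a5) were lower in every scrambled library than in every sham library, beside 20.8% of all genes. The median log2 fold change of the 9 was -0.15 for scrambled against sham and 0.21 for knockdown against scrambled. Col18a1 had 229, 288 and 222 CPM in knockdown libraries, 69.0, 117 and 44.1 CPM in scrambled libraries and 321 and 253 CPM in sham libraries. All 3 scrambled libraries were below all others, scrambled 2 by the least. It fell in scrambled against sham by 1.90 ± 0.35 on the log2 scale (edgeR adjusted p = 0.0389) and was at 1.68 ± 0.32 for knockdown against scrambled (adjusted p = 0.061). For knockdown against sham it was at -0.22 ± 0.35 (adjusted p = 1.0).

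The Col18a1 call was near the threshold. Col18a1 passed without scrambled 2 (-2.32, adjusted p = 1.02e-05), with scrambled 2 as the single scrambled library (-1.29, adjusted p = 0.0056) and by DESeq2 (adjusted p = 2.3e-05). It did not pass without any 1 of the other 7 libraries. The adjusted p was 0.0914, 0.0873 and 0.0895 without knockdown 1, 2 and 3, then 0.105 and 0.0836 without scrambled 1 and 3, and 0.344 and 0.201 without sham 1 and 2. The log2 fold changes in these 7 fits were between -2.07 and -1.62. The gene lies on chromosome 10 from 77052178 to 77166548, on the minus strand (GENCODE M21, GRCm38).

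Col15a1, the other proteoglycan collagen of this zone, had the most negative log2 fold change of the family for scrambled against sham, and it is described after its values were seen. It had 927, 1403 and 957 CPM in knockdown libraries, 31.5, 364 and 26.4 CPM in scrambled libraries and 1567 and 963 CPM in sham libraries. Scrambled 2 was at 28.8% of the sham mean, and the other scrambled libraries were lower still. The log2 fold change was -3.17 ± 0.96 for scrambled against sham (edgeR adjusted p = 0.0966) and 2.96 ± 0.91 for knockdown against scrambled (adjusted p = 0.0857). Without scrambled 2 these were -5.44 (adjusted p = 4.58e-07) and 5.23 (adjusted p = 4.82e-07). With scrambled 2 alone they were -1.79 (adjusted p = 0.0435) and 1.59 (adjusted p = 0.111), and the highest adjusted p over all settings tried was 0.421 and 0.238.

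The 6 type IV chains are coded by 3 pairs of genes that lie head to head. Col4a1 and Col4a2 make the type IV found in nearly all basement membranes. Their annotated starts overlap on chromosome 8, with Col4a1 starting at 11312826 on the minus strand and Col4a2 at 11312805 on the plus strand. The bases that both transcripts share are shown because reads there cannot be given to 1 chain without strand, and the sources used here do not name the counting strand.
Col4a1 and Col4a2 shared start, chr8:11312805-11312826, plus strand: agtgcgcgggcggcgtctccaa
Col4a1 had 3759.6, 4195 and 3962 CPM in knockdown libraries, 6903, 4143 and 5568 CPM in scrambled libraries and 4436 and 3067 CPM in sham libraries. Scrambled 1 and 3 were above every other library and scrambled 2 was inside the range of the rest.

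The log2 fold change of Col4a1 was 0.56 ± 0.28 for scrambled against sham (edgeR adjusted p = 0.21) and -0.48 ± 0.25 for knockdown against scrambled (adjusted p = 0.205). Without scrambled 2 it was 0.74 (adjusted p = 0.0122) and -0.66 (adjusted p = 0.0122), and it was the 1 collagen called lower in knockdown there. Over all settings tried the adjusted p ran from 0.0122 to 0.814 against sham and from 0.0122 to 0.926 for knockdown against scrambled. Col4a2 had 1974, 2335 and 2114 CPM in knockdown libraries, 2865, 2080 and 2743 CPM in scrambled libraries and 2565 and 1611 CPM in sham libraries, at 0.30 ± 0.26 for scrambled against sham (adjusted p = 0.446). By mean CPM per kilobase of transcript, Col4a1 was the sixth collagen in knockdown libraries (600.5), the first in scrambled libraries (837) and the sixth in sham libraries (567), but in scrambled 2 it ranked 4, behind Col3a1. Col3a1 was the first in knockdown libraries (2836), the third in scrambled libraries (724) and the first in sham libraries (3205). In scrambled libraries Col4a1, Col1a2 (767) and Col3a1 were not separable, since Col3a1 and Col1a2 each varied between libraries by more than the gaps between these means.

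Col4a3 and Col4a4 start back to back on chromosome 1 and join Col4a5 in the type IV of kidney and lung, where mutations cause Alport syndrome in humans. Col4a4 had 116, 119 and 125 CPM in knockdown libraries, 132, 107 and 144 CPM in scrambled libraries and 89.0 and 109.7 CPM in sham libraries. Col4a3 had 82.2, 73.4 and 87.5 CPM in knockdown libraries, 81.3, 55.4 and 73.1 CPM in scrambled libraries and 59.7 and 78.8 CPM in sham libraries. Both chains overlapped between scrambled and sham libraries and varied little over the 8 libraries, with log2 fold changes for scrambled against sham of 0.36 ± 0.18 for Col4a4 (edgeR adjusted p = 0.211) and 0.01 ± 0.21 for Col4a3 (adjusted p = 0.969). The sign for Col4a3 was negative in 6 of the 14 other settings tried.

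Col4a5 and Col4a6, the X-linked pair, were more variable. Col4a5 had 167, 222 and 187 CPM in knockdown libraries, 68.7, 121 and 28.8 CPM in scrambled libraries and 171 and 198 CPM in sham libraries. All scrambled libraries were below all others, at -1.34 ± 0.45 for scrambled against sham (edgeR adjusted p = 0.11) and 1.40 ± 0.41 for knockdown against scrambled (adjusted p = 0.0813). Scrambled 2 alone put Col4a5 at -0.61 (adjusted p = 0.112) and 0.66 (adjusted p = 0.126). Col4a6 had 20.3, 30.8 and 21.9 CPM in knockdown libraries, 16.7, 19.6 and 5.54 CPM in scrambled libraries and 17.8 and 22.7 CPM in sham libraries. Scrambled 2 lay inside the sham range for Col4a6, at -0.52 ± 0.44 for scrambled against sham (adjusted p = 0.418). Col7a1, which anchors skin to its basement membrane, was between 2.80 and 5.64 CPM in all libraries.

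Ratios of CPM per kilobase between chains of 1 library do not depend on its depth, and several of them stood apart between the groups. Col3a1 over Col1a2 was 1.41, 1.73 and 1.54 in knockdown libraries, 0.362, 1.22 and 0.545 in scrambled libraries and 1.97 and 1.60 in sham libraries. Col5a3 over Col5a2 was 1.08, 1.09 and 1.19 in knockdown libraries, 0.422, 0.791 and 0.421 in scrambled libraries and 1.28 and 1.35 in sham libraries. In both ratios every scrambled library, scrambled 2 included, was below every other library, and for Col5a3 over Col5a2 the knockdown libraries were also below both sham libraries.

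Within type IV, Col4a5 over Col4a6 was 8.37, 7.35 and 8.68 in knockdown libraries, 4.2, 6.27 and 5.28 in scrambled libraries and 9.73 and 8.86 in sham libraries. Col4a1 over Col4a2 was 1.86, 1.75 and 1.83 in knockdown libraries, 2.35, 1.94 and 1.98 in scrambled libraries and 1.69 and 1.86 in sham libraries. Scrambled libraries were thus all lower in the first of these ratios and all higher in the second. For Col4a5 over Col4a6 the knockdown libraries were also below both sham libraries. Col1a1 over Col1a2, which make type I together, was 0.664 ± 0.078 in knockdown libraries, 0.467 ± 0.215 in scrambled libraries and 0.662 ± 0.060 in sham libraries (SD, n = 3, 3 and 2), and its groups overlapped. Also overlapping between scrambled and sham were Col5a1 over Col5a3, Col6a3 over Col6a1, Col6a6 over Col6a3, Col8a1 over Col8a2 and Col11a1 over Col11a2. Also apart between them were Col3a1 over Col1a1, Col4a3 over Col4a4, Col5a1 over Col5a2, Col6a1 over Col6a2, Col4a1 over Col1a2 and Col4a1 over Col3a1. Ratios have no p here, since the chains were picked with earlier results known.

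**Figure D5:**
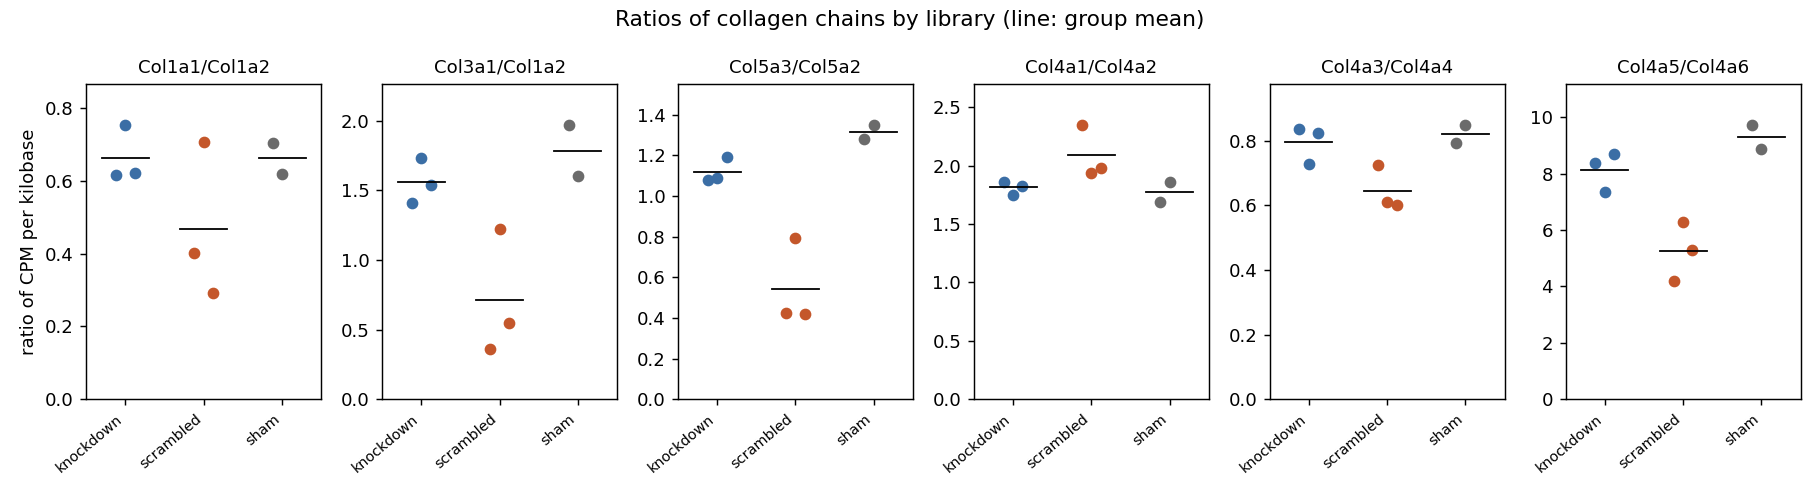
Points give, for each library, the ratio of CPM per kilobase of 2 collagen chains (vertical axes from 0), with lines at the group means of knockdown, scrambled and sham libraries. Col3a1 over Col1a2, Col5a3 over Col5a2 and Col4a5 over Col4a6 are lower in every scrambled library than in every other library, and Col1a1 over Col1a2 overlaps through scrambled 2.

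Transmembrane and other chains were scarce and mixed, with 3 of the 4 tested at a positive log2 fold change for scrambled against sham and 2 of 4 for knockdown against scrambled. Col17a1, an epithelial hemidesmosome collagen, had 13.3, 31.0 and 3.54 CPM in knockdown libraries, 44.9, 6.80 and 6.93 CPM in scrambled libraries and 4.43 and 2.01 CPM in sham libraries. All scrambled libraries were above both sham libraries, but the spread inside the tumour groups was wide, with 2.64 ± 1.16 for scrambled against sham (edgeR adjusted p = 0.169) and 1.11 (adjusted p = 0.852) with scrambled 2 alone. Col28a1, known from peripheral nerve, had 4.46, 7.14 and 3.76 CPM in knockdown libraries, 8.97, 6.72 and 3.84 CPM in scrambled libraries and 2.72 and 2.85 CPM in sham libraries. Every tumour library was above both sham libraries, at 1.25 ± 0.47 for scrambled against sham (adjusted p = 0.131) and 0.87 ± 0.48 for knockdown against sham (adjusted p = 1.0). The Schwann cell list summed to 69.0 to 76.9 CPM in knockdown, 58.7 to 104 CPM in scrambled and 39.6 to 41.2 CPM in sham libraries, and its part in Col28a1 was not tested.

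Col23a1, a transmembrane collagen, had 19.6, 15.3 and 19.6 CPM in knockdown libraries, 10.4, 13.2 and 12 CPM in scrambled libraries and 16.8 and 18.7 CPM in sham libraries. Its 3 scrambled libraries lay close together and below all others, at -0.58 ± 0.22 for scrambled against sham (edgeR adjusted p = 0.133) and 0.62 ± 0.20 for knockdown against scrambled (adjusted p = 0.0901), the signs of most fibrillar chains. Col13a1 was at most 1.49 CPM in any library.

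Genes that fold, trim, secrete and crosslink procollagen held a single edgeR call for scrambled against sham, and it was higher. Of 33 listed genes 32 were tested, and for scrambled against sham 1 was called higher and 0 lower, beside 1.1% and 0.476% of all genes. Of the 32, 27 had a negative log2 fold change and the median was -0.73, beside 0.00 over all genes. At an unadjusted p under 0.05 there were 14 (43.8%), beside 29.2% of all genes. DESeq2 called 2 higher and 9 lower, beside 8.79% and 5.01% of all genes. The groups did not overlap for 12 that were lower and 2 that were higher, against a background of 20.8% and 20.2%. Lox, the lysyl oxidase that starts crosslinks between collagen chains, was the gene called by edgeR. It had 313, 266 and 290.3 CPM in knockdown libraries, 2274, 655 and 2456 CPM in scrambled libraries and 118 and 154 CPM in sham libraries. Every scrambled library, scrambled 2 included, was above every other library, and every knockdown library was above both sham libraries. For knockdown against sham edgeR called 0 of the 32 genes, beside 0.00733% of all genes called higher and 0.0% called lower. An unadjusted p under 0.05 was reached by 1 (3.12%), beside 2.37% of all genes, and the median log2 fold change was -0.03. The groups did not overlap for 3 that were higher and 2 that were lower, against a background of 13.8% and 13.5%.

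Lox rose by 3.72 ± 0.54 on the log2 scale in scrambled against sham (edgeR adjusted p = 0.0232) and was at -2.63 ± 0.44 for knockdown against scrambled (adjusted p = 0.061). The adjusted p passed without scrambled 1 (0.0467) and scrambled 2 (1.18e-07), and with scrambled 2 alone (4.44e-05). It did not pass without scrambled 3 (0.0599), without knockdown 1, 2 or 3 (0.0578, 0.0694 and 0.0613) or without sham 1 or 2 (0.288 and 0.201). Loxl2, another lysyl oxidase, went the other way, with 456, 446 and 431 CPM in knockdown libraries, 73.9, 229.5 and 69.9 CPM in scrambled libraries and 613 and 414 CPM in sham libraries (-2.04 ± 0.47 for scrambled against sham, adjusted p = 0.0599). Scrambled 2 alone put Loxl2 at -1.16 (adjusted p = 0.0136).

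None of the 3 enzymes that cut the amino end of procollagen passed the test. Adamts2, the most abundant of them and named after its values were seen, had 648, 732 and 625 CPM in knockdown libraries, 954, 695 and 1113 CPM in scrambled libraries and 763 and 605 CPM in sham libraries, and its groups overlapped (0.43 ± 0.24 for scrambled against sham, edgeR adjusted p = 0.247). Adamts3 had 13.0, 15.2 and 12.1 CPM in knockdown libraries, 40, 20.1 and 25.8 CPM in scrambled libraries and 8.10 and 10.6 CPM in sham libraries, at 1.61 ± 0.33 for scrambled against sham (edgeR adjusted p = 0.0502). Adamts14 had 41.9, 57.2 and 36.3 CPM in knockdown libraries, 22.4, 21.2 and 10.1 CPM in scrambled libraries and 76.5 and 39.2 CPM in sham libraries, at -1.68 ± 0.38 (adjusted p = 0.0599). In all 3 scrambled libraries Adamts3 was above and Adamts14 below both sham libraries. Scrambled 2 alone put Adamts3 at 1.10 (adjusted p = 0.0313), Adamts14 at -1.44 (adjusted p = 0.206) and Adamts2 at 0.03 (adjusted p = 0.971). Fkbp14, a prolyl isomerase of the endoplasmic reticulum that helps collagen fold, had 54.1, 68.6 and 49.9 CPM in knockdown libraries, 9.95, 32.1 and 9.13 CPM in scrambled libraries and 64.3 and 57.6 CPM in sham libraries (-1.83 ± 0.47, adjusted p = 0.0729, and -0.92 with adjusted p = 0.0314 for scrambled 2 alone). P3h2, a prolyl hydroxylase that acts on type IV, was between 0.443 and 4.31 CPM in all libraries.

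Serpinh1, the collagen chaperone HSP47, is named after its values were seen. It had 1269, 1904 and 1149 CPM in knockdown libraries, 125, 990 and 171 CPM in scrambled libraries and 1806 and 972 CPM in sham libraries, with scrambled 2 inside the sham range. For knockdown against scrambled 0 of the 32 genes passed, beside 0.00733% of all genes called higher and 0.044% called lower. Of the 32, 28 had a positive log2 fold change, beside 6927 of all 13646 genes, and the median was 0.65, beside 0.01. An unadjusted p under 0.05 was reached by 17 (53.1%), beside 32.4% of all genes. DESeq2 called 7 of them higher and 2 lower, beside 5.42% and 10.4% of all genes.

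Of 15 listed collagen receptors and uptake genes, 12 were tested, and for scrambled against sham 1 was called higher and 0 lower, beside 1.1% and 0.476% of all genes. It was Cd36, a scavenger receptor that binds collagen and fatty acids. It had 58.5, 40.9 and 64.4 CPM in knockdown libraries, 102, 63.2 and 126 CPM in scrambled libraries and 23.7 and 21.4 CPM in sham libraries. The scrambled libraries were all above the sham libraries (2.11 ± 0.32, edgeR adjusted p = 0.0252), and knockdown and scrambled overlapped (-0.83 ± 0.27, adjusted p = 0.0899). The knockdown libraries too were all above the sham libraries. The call held without scrambled 2 (adjusted p = 6.55e-06) and with scrambled 2 alone (1.49, adjusted p = 0.00618). Leaving out knockdown 1, 2 or 3 gave 0.0663, 0.0553 and 0.0613, scrambled 1 or 3 gave 0.0561 and 0.0699, and sham 1 or 2 gave 0.269 and 0.235.

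Ddr2, the receptor kinase of fibrillar collagen, had 909, 849 and 881 CPM in knockdown libraries, 395, 789 and 491 CPM in scrambled libraries and 798 and 751 CPM in sham libraries, and scrambled 2 was inside the sham range. Itga2, a subunit of a collagen-binding integrin, had 12.4, 13.9 and 11.1 CPM in knockdown libraries, 2.59, 8.28 and 1.32 CPM in scrambled libraries and 8.86 and 16.6 CPM in sham libraries (-1.61 ± 0.58 for scrambled against sham, edgeR adjusted p = 0.123, and -0.63 with adjusted p = 0.429 for scrambled 2 alone). Itga1, the subunit that prefers type IV, was at 17.2, 26.1 and 14.7 CPM in scrambled libraries and 13.6 and 17.3 CPM in sham libraries, with a log2 fold change of 0.33 ± 0.27 (adjusted p = 0.418). Adgrg1, an adhesion receptor that binds type III, had 17.0, 11.8 and 18.7 CPM in knockdown libraries, 23.0, 10.7 and 21.9 CPM in scrambled libraries and 8.92 and 7.64 CPM in sham libraries. All tumour libraries were above both sham libraries, at 1.16 ± 0.38 for scrambled against sham (edgeR adjusted p = 0.105) and 0.94 for knockdown against sham (adjusted p = 1.0). For knockdown against scrambled 0 of the 12 receptor and uptake genes passed, beside 0.00733% of all genes called higher and 0.044% called lower. Of the 12, 5 (41.7%) had an unadjusted p under 0.05, a share near the 32.4% of all genes. DESeq2 called 1 higher and 1 lower, beside 5.42% and 10.4% of all genes. For knockdown against sham edgeR called 0 of the 12, beside 0.00733% of all genes called higher and 0.0% called lower. Of these, 2 (16.7%) had an unadjusted p under 0.05, beside 2.37% of all genes. The groups did not overlap for 5 that were higher and 1 that was lower, against a background of 13.8% and 13.5%.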

How the data were processed

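The authors deposited 1 table of raw, unnormalised counts, with a row for each of 24419 gene symbols and a column for each library. The submitters' processing notes list build mm10 and the programs STAR, Bowtie, bcl2fastq 2.20, R 4.2.1 and DESeq2 1.36.0, and do not say what each did. Per the labels' protocols, samples with a RIN from 7 upward were made into stranded Illumina mRNA libraries and read in pairs of 59 bases on a NextSeq 2000. The sources used here name no counting tool, annotation or counting strand. Exons of Col4a1 and Col4a2, Col9a3 and Tcfl5, and Col7a1 and Mir711 overlap.

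Counts were tested in R 4.3.3 with edgeR 4.0.16: filterByExpr (minimum count 10, total 15), TMM, robust quasi-likelihood fit of 3 group means over all 8 libraries, 2-sided tests with Benjamini-Hochberg adjustment over 13646 genes and a threshold of 0.05. Standard errors are the absolute log2 fold change over the square root of F. Values are TMM-scaled CPM, per kilobase of the longest GENCODE M21 basic coding transcript where chains are compared. Shares of all counts are not TMM-scaled. A group is called apart when its libraries do not overlap those of the other. Alternatives were RLE factors, no filter, DESeq2 1.42.0, only the groups compared, a replicate block, each library left out, and scrambled 2 as the single scrambled library, the last added after the data were seen. The procedure was tested on simulated data. Collagens, lists and tests were chosen with earlier results of these data known, so summed levels and ratios get no p. Values in every library are given for collagens called, the 2 with the highest mean in each structural group, the 6 with the smallest p in each comparison and their partner chains. Counting error covers reads, not molecules.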

Additional observations from a re-analysis of the deposited data

How the results depend on the processing

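For scrambled against sham, the count of collagens called lower was 1 in the reported fit, 10 by DESeq2, 0 with only the 2 groups compared, 0 with the replicate block, 5 with scrambled 2 as the single scrambled library, and from 0 to 19 when 1 library was left out (19 without scrambled 2, 0 without any other). The count called higher ran from 0 to 4. For knockdown against scrambled, the count called higher was 0, but 13 by DESeq2, 2 with scrambled 2 alone and from 0 to 23 with 1 library left out, and the count called lower ran from 0 to 1. For knockdown against sham it was 0 throughout. Shares of all genes called lower for scrambled against sham were 0.476% in the reported fit, 5.01% by DESeq2 and 25.6% without scrambled 2. Those called higher for knockdown against scrambled were 0.00733%, 5.42% and 27.3% in the same order. The fall to 0 in other fits has no such share beside it here, and cannot be told from fewer calls over all genes. The difference in mean log2 summed collagen CPM ran, with 1 library left out, from -1.94 to -1.18 for scrambled against sham, from 1.09 to 1.85 for knockdown against scrambled and from -0.39 to 0.21 for knockdown against sham. With scrambled 2 alone it was -0.56 and 0.47 in the first 2 comparisons. The causes were not tested, apart from the library left out.

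Same-numbered libraries did not deviate together (r from -0.064 to 0.172), so replicate numbers were not taken as pairs. With the replicate block no collagen was called in any comparison, and Lox and Col18a1 lost their calls (3.40 and -1.81).

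Of 1064 single-gene values under other settings, 917 kept direction and side of the threshold, 99 passed it, 25 lost it and 23 changed sign. In the reported fit only Col18a1, Lox and Cd36 passed, all for scrambled against sham, so the 25 that lost it were values of these genes. Most of the 917 were values that passed in neither fit. Of the 99, 56 came without scrambled 2 and 33 by DESeq2. For scrambled against sham Col24a1 was at -0.45, Col4a2 at -0.013 and P3h2 at 1.99 without sham 2, against 0.98, 0.67 and -0.97 without sham 1. Col4a3 was at -0.014 without a filter, -0.048 with the replicate block, -0.11 without scrambled 1, -0.018 without scrambled 3 and -0.18 without sham 1, with 0.22 without sham 2. Col6a5 was at 0.007 without scrambled 1 and 0.14 without scrambled 3, with -1.36 without scrambled 2. With scrambled 2 alone Col4a2 was at -0.0025, Col4a3 at -0.32, Col6a5 at 0.78 and Ddr2 at 0.03. For knockdown against scrambled Col17a1 was at 0.16 without knockdown 3 and 1.20 without scrambled 1, with -1.24 without knockdown 2. With scrambled 2 alone Col17a1 was at 1.18, Adgrg1 at 0.58, Col4a2 at 0.037, Col4a4 at 0.16, Col6a5 at -0.00049, Col8a1 at -0.20 and Itga1 at -0.18.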

Other observations

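Scrambled library 2 was not midway for every collagen. Against the sham mean it stood at 28.8% for Col15a1, 35.4% for Col6a2, 37.9% for Col5a3, 40.7% for Col18a1 and 43.3% for Col6a1. It stood at 56.8% for Col3a1, 84.2% for Col1a2, 85.5% for Col27a1 and 89.0% for Col1a1, at 61.7% for Col6a3 and 72.8% for Col6a6, at 99.6% for Col4a2 and 110.4% for Col4a1, and at 171% for Col6a5. Against sham, the proteoglycan collagens and every type VI chain but Col6a5 were thus lower in this library than both type I chains, and these genes were picked after their values were seen. Cd34, a surface marker of these progenitors, had 1914, 1925 and 1805 CPM in knockdown libraries, 213, 1179 and 241 CPM in scrambled libraries and 2250.3 and 2156 CPM in sham libraries, while Dcn had 16204, 12811 and 15462 CPM in knockdown libraries, 24983, 19625 and 21059 CPM in scrambled libraries and 11101 and 14630.4 CPM in sham libraries. Lists of other cells with low sums were muscle fibre (52.7 to 69.2 CPM in knockdown, 76.2 to 259.5 in scrambled and 35.6 to 70.0 in sham libraries), pericyte and smooth muscle (323 to 407, 227 to 359 and 334 to 358), muscle stem cell (219.6 to 246, 291 to 535 and 197 to 199), chondrocyte and bone (24.5 to 36.8, 28.1 to 42.6 and 28 to 36.2, with 3 of 8 markers at 0 in every library) and macrophage (14 to 52.0, 23.7 to 41.3 and 16.1 to 19.7), in the same order of groups. Sdc4 was the largest part of the muscle stem cell sum in every library. It had 125, 118 and 111 CPM in knockdown, 494, 173 and 340.2 CPM in scrambled and 85.1 and 85.8 CPM in sham libraries. Pax7, Myf5 and Myod1 were at most 1.45 CPM in any library. edgeR called 0 of these 10 markers (background 1.1% higher and 0.476% lower), and DESeq2 called 3 higher and 1 lower (background 8.79% and 5.01%). An unadjusted p under 0.05 was reached by 6 (60.0%), beside 29.2% of all genes. The part of these other cells in the collagen levels was not tested. No group had enough libraries for a test of single outlying libraries.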
